A study of Saccharomyces cerevisiae with 19 samples.

Results

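In budding yeast, 89 array probes inside protein-coding genes gained signal for the silencing protein Sir3 when SIR3 was overexpressed. They were chosen from 26120 internal coding probes, which lie wholly within a gene, at least 50 kb from both chromosome ends and outside the ribosomal DNA. Measured values chose them. Signal had to lie above 0.8 on both steady-growth arrays of strain yAT1254, in which the strong GPD promoter drives SIR3, and below 0.5 on both wild-type arrays. It also had to stay at or below 1 on at least one array of a strain labelled dot1. Signal is the log2 ratio of immunoprecipitated over input DNA minus the median of that array, so 0 stands for the typical probe and not for absence of Sir3. The 89 probes lay in 66 of 5002 genes with an eligible probe (1.32%), at 56 separate loci on 14 chromosomes. Below they are called the gained probes.

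Sir3 is a subunit of the Sir2, Sir3 and Sir4 complex, which silences the mating cassettes and the genes next to telomeres. Sir2 removes acetyl groups from histone tails, and Sir3 binds the deacetylated nucleosomes. Dot1 methylates histone H3 on the nucleosome surface that Sir3 contacts, and this methylation weakens Sir3 binding. Sir3 also needs an acetylated amino-terminus, which the A2Q substitution disturbs. Away from telomeres Sir3 is normally scarce. Many of the genes below serve meiosis or spore formation, which yeast keeps switched off during growth in rich medium.

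Sir3 was profiled on 19 two-colour arrays in 11 groups, with the precipitated DNA in Cy5 and whole-cell extract in Cy3. The A2Q group is strain yAT1256, with SIR3-A2Q under the GPD promoter. Strain yAT1668 carries both pGPD-SIR2 and pGPD-SIR3, and its counterpart yAT1667 carries pGPD-SIR2; both have RAP1-GFP and RDN1::ADE2. Strain yAT3183, labelled dot1::KANMx, and strain yAT1254 were grown in 5 mM nicotinamide (NAM), which inhibits Sir2, and sampled 8 h after its removal. The promoter series runs from WT (yAT191) through pADH-SIR3 (yAT2627) and pTEF-SIR3 (yAT2629) to 3 strains with pGPD-SIR3, namely yAT2554, yAT2476 and yAT1254. Strains yAT191, yAT1254, yAT1256 and yAT3183 share ade2-1::ADE2, a construct of URA3 and telomeric repeats at ADH4, a ppr1 deletion and GFP-RAP1. Strains yAT2627, yAT2629 and yAT2554 share ade2-1::ADE2, an hml deletion and RAP1-GFP, and yAT2476 has GFP-RAP1. Every strain thus carries a GFP-tagged RAP1, and all cells grew exponentially in rich medium. The titles of WT, pADH-SIR3, pTEF-SIR3, yAT2554, steady-growth yAT1254 and A2Q arrays carry Glu, read here as glucose, and the other titles do not.

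There were 8 groups of 2 arrays, while yAT2554, yAT2476 and pGPD-SIR2 had 1 array each and have no SD. Whether replicates came from separate cultures is not said in the labels, so p-values measure only the spread between arrays, which may be technical. Each array measured 40247 to 41270 of the 41480 chromosomal probes, and the number of arrays limits the precision. Over internal coding probes, replicates correlated between 0.43 (WT) and 0.969 (dot1); probes are not independent replicates. The scaled spread of internal probes was 0.54 and 0.55 on the dot1 arrays, against 0.27 to 0.39 on the other 17. SIR3 expression was not measured here, and the deletion of DOT1 rests on the label.

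Gained probes lay nearer to the starts of genes than internal coding probes did. The median distance from the start codon was 422 bp for the gained probes, against 854 bp for internal coding probes, and 53 of 89 (59.6%) lay within 500 bp of it, against 30.9%. Counted once per gene, the 66 genes had a median length of 1224 bp, against 1248 bp for all 5002 internal genes. Counted per probe, as the distances are, the median gene length was 1403 bp for gained probes, against 1923 bp for internal coding probes. Whether the gap in distance goes with gene length was not tested. As a fraction of gene length, the median position was 0.398, against 0.503. Of the gained probes, 8.99% lay within 2 kb of a tRNA gene, against 6.38% of internal coding probes. These are descriptions of a chosen set, with no test.

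Most genes held a lone gained probe: 51 of 66 had 1 and 15 had 2 or more. Genes with several are the spore wall and meiosis genes GAS4 (4), PFS1, MEI5 and REC114 (3 each), and PEP1 (4), which encodes the vacuolar sorting receptor. PDC6, a minor pyruvate decarboxylase, had 3. Some loci spanned neighbouring genes. GAS4 and YOL131W held 5 gained probes over chr15:71771-73136, and SSP1 and PFS1 held 5 over chr8:473461-475308. TFB2 and MEI5 held 4 over chr16:320691-321623, and the chitin deacetylase genes CDA1 and CDA2 held 3 over chr12:745889-748614. Coordinates are those of the deposited files, and the sources used here do not give their genome build. Gene names come from RefSeq's R64 annotation, so placement within a gene is approximate.

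The gained probes had medians near 0 in the A2Q strain and from 0.74 to 1.12 on the arrays of DOT1 strains with wild-type SIR3 under the TEF or GPD promoter. The dot1 strain, also with pGPD-SIR3, lay lower, near pADH-SIR3 on this unscaled signal. With arrays scaled to a common spread the group medians were 0.27 in dot1 and 0.60 with pADH-SIR3. Unscaled, the medians over the gained probes were 0.03 and -0.02 on the 2 A2Q arrays. In pGPD-SIR2 pGPD-SIR3 cells they were 1.08 and 1.07, against 0.41 on the pGPD-SIR2 array. Along the promoter series the medians were 0.27 and 0.12 in WT, 0.50 and 0.53 with pADH-SIR3, and 1.00 and 1.12 with pTEF-SIR3. With pGPD-SIR3 they were 0.94 in yAT2554, 0.74 in yAT2476, and 0.98 and 1.10 in yAT1254. After NAM release they were 0.45 on both dot1 arrays, against 0.87 and 0.93 in yAT1254. The medians of all internal coding probes stayed between -0.06 and 0.04 on all 19 arrays. WT, steady-growth yAT1254 and dot1 values were used to choose the probes and are given as a description only.

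**Figure D1:**
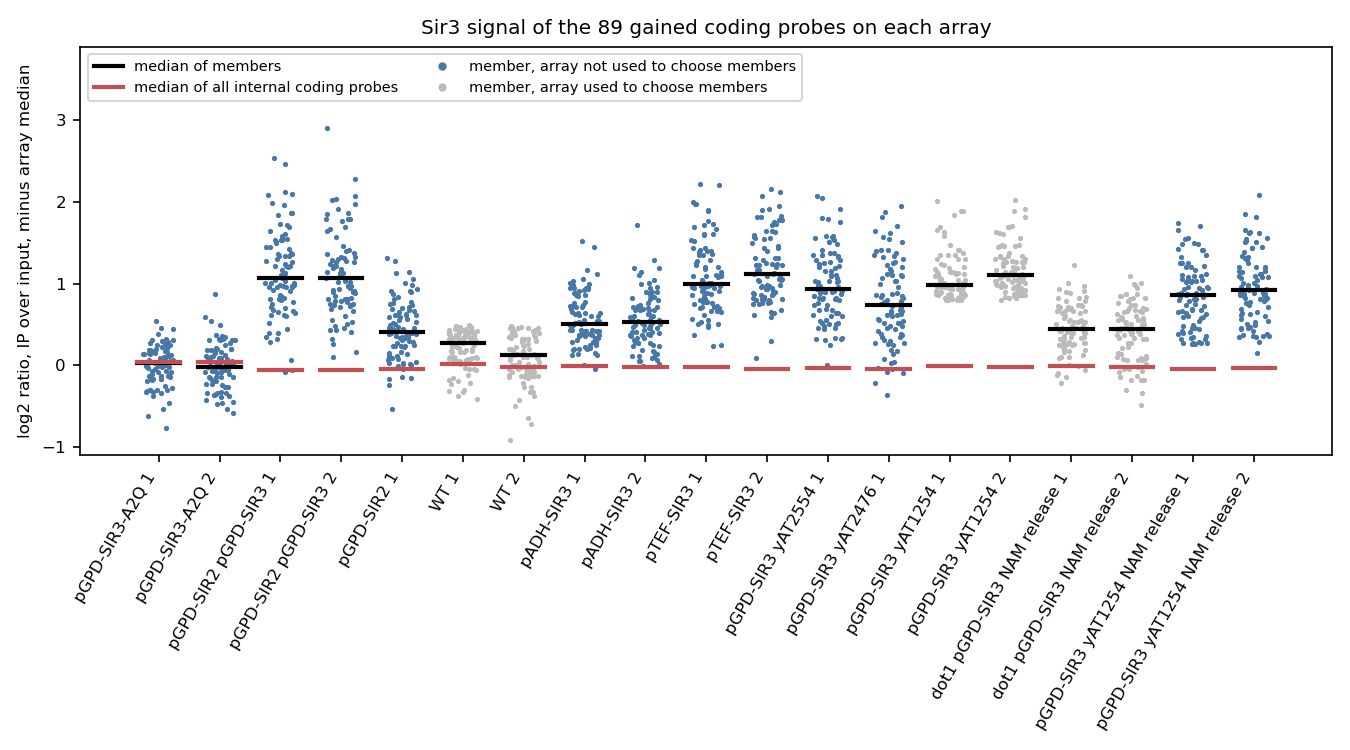
Log2 ratio of precipitated over input DNA minus the array median (vertical axis) for each of the 89 gained probes (points) on each of the 19 arrays (horizontal axis). Black lines are medians of the gained probes, 1.00 and 1.12 with pTEF-SIR3 and 0.03 and -0.02 in A2Q; red lines are medians of all internal coding probes, and grey points mark the arrays used for the choice.

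Counted probe by probe, 0.8 on every array of a group was passed by 0 of 89 gained probes in A2Q, where 0.0103% of the internal coding probes meeting the WT and dot1 conditions passed. It was passed by 57 of 85 in pGPD-SIR2 pGPD-SIR3 (background 1.62%) and by 14 of 88 in pGPD-SIR2 (background 0.465%). With pADH-SIR3, 16 of 87 passed (background 0.0941%), and with pTEF-SIR3, 59 of 88 (background 0.765%). On the yAT2554 array 61 of 89 passed (background 0.877%) and on the yAT2476 array 40 of 88 (background 1.06%). After NAM release 6 of 87 passed on both dot1 arrays (background 3.55%), where the rule itself capped the signal, against 49 of 87 in yAT1254 (background 0.733%).

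Genes of meiosis and spore formation were frequent among the gained probes. In a list of such genes, compiled with earlier results of these data known, 9 of 30 internal genes (30.0%) held a gained probe, against 1.32% of all internal genes. They are REC114, SSP1, REC8, MND1, ZIP1, SPS4, HOP1, SPR28 and NDT80. A broader class assigned after the probes were seen counts 21 of the 66 genes and 36 of the 89 probes. With no share of all genes to set it against, this count describes the gained probes only. The median signal of these 36 was 0.0047 in A2Q, 1.08 with pTEF-SIR3 and 0.92 in yAT1254 after NAM release.

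Several of these genes act in meiotic recombination. MND1, whose product helps strand exchange between homologous chromosomes, had a probe at chr7:157055-157114 with 1.40 and 2.07 in pTEF-SIR3, against 0.95 and 1.10 in pADH-SIR3. On the same probe A2Q had -0.08 and -0.14, against 1.74 and 2.09 in yAT1254 after NAM release. Neither pair of groups overlapped. ZIP1, which builds the synaptonemal complex between paired chromosomes, had 1.43 and 1.64 in pTEF-SIR3, against 0.72 and 0.60 in pADH-SIR3 (chr4:1032954-1033013). MSH4, a crossover factor, had 1.68 and 1.78 in pTEF-SIR3, against 0.90 and 1.01 in pADH-SIR3 (chr6:137012-137070). For ZIP1 and MSH4 each pTEF-SIR3 array lay above both pADH-SIR3 arrays.

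Other genes of this group had lower levels with pTEF-SIR3. HOP1, a protein of the meiotic chromosome axis, had 0.53 and 0.66 in pTEF-SIR3, against 0.20 and 0.02 in pADH-SIR3. REC8, the meiotic cohesin, had 0.71 and 0.81 in pTEF-SIR3, against 0.29 and 0.12 in pADH-SIR3, at the higher of its probes. The 3 probes of REC114, needed for meiotic double-strand breaks, ran from 0.61 to 0.90 in pTEF-SIR3 and from 0.31 to 0.56 in pADH-SIR3. For each of these 3 genes, pTEF-SIR3 lay above pADH-SIR3 on every probe named, with levels under 1.

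Genes for the spore wall and prospore membrane held the highest gained probe in pGPD-SIR2 pGPD-SIR3 (CDA1) and in yAT2476 (PFS1), and not in the other 9 groups. PFS1 acts in prospore membrane formation. Its probe nearest the start codon, chr8:475249-475308, had 1.44 and 1.19 in pADH-SIR3, 1.90 and 2.13 in pTEF-SIR3, 1.80 in yAT2554 and 1.95 in yAT2476. It had -0.31 and -0.10 in A2Q, against 1.56 and 1.82 in yAT1254 after NAM release. Only WT, at 0.10 and 0.41, came near the A2Q level among these groups. At SSP1, which shapes the rim of the prospore membrane, the higher probe had 0.96 and 0.98 in pTEF-SIR3, against 0.36 and 0.06 in pADH-SIR3. CDA1 stood out in cells with both overexpressed genes: 2.55 and 2.91 in pGPD-SIR2 pGPD-SIR3, against 0.39 in pGPD-SIR2 (chr12:745889-745948).

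Next to GAS4, a glucan-elongating enzyme of the spore wall, lies YOL131W. Its probe, chr15:73079-73136, had 0.91 and 0.95 in pADH-SIR3 and 2.21 and 2.16 in pTEF-SIR3. It had 2.04 in yAT2554 and 1.10 in yAT2476, so the pGPD-SIR3 strains differed by more than the spread of replicates in the other groups. The 4 gained probes within GAS4 were lower, at 0.71 to 1.35 in pTEF-SIR3 and -0.01 to 0.54 in pADH-SIR3. Signal at this locus was thus highest downstream of GAS4, around YOL131W, on the pTEF-SIR3 arrays.

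**Figure D2:**
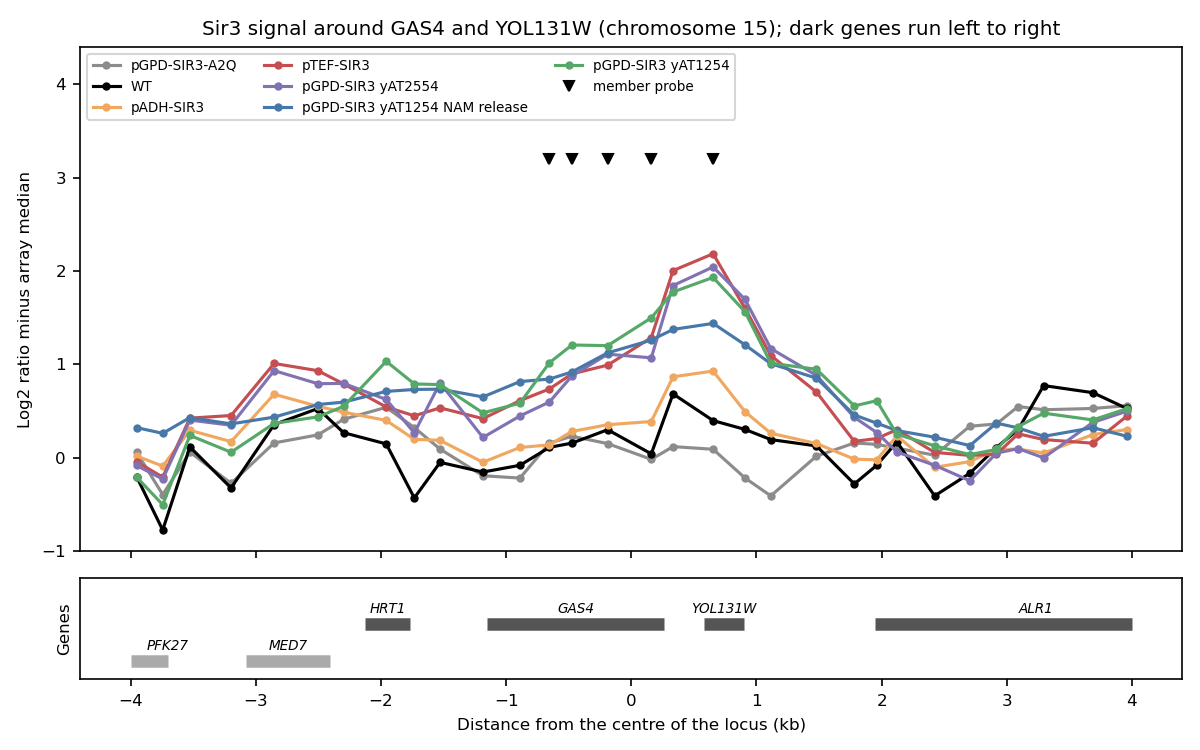
Mean log2 ratio minus array median (vertical axis) of each probe against its distance in kb from the centre of the GAS4 and YOL131W locus (horizontal axis), for 7 groups, with gained probes marked by triangles and genes drawn below. Signal reached 2.19 with pTEF-SIR3 at YOL131W, where A2Q had 0.09.

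Another 14 genes with 16 probes were put under carbon and energy metabolism after the probes were seen; with no share of all genes to set it against, this count describes the members only. The median signal of these 16 was 0.0077 in A2Q, 1.01 with pTEF-SIR3 and 0.80 in yAT1254 after NAM release. Several are minor isoforms of glycolytic enzymes (PDC6, PYK2, GPM2) or stress forms (GPD1, CYC7). PDC6 had 1.96 and 1.98 in pGPD-SIR2 pGPD-SIR3, against 0.40 in pGPD-SIR2, at chr7:651846-651894. On that probe yAT2554 had 1.37 and yAT2476 had -0.05, which sets these pGPD-SIR3 strains far apart.

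Among highly transcribed glycolytic and fermentation genes, 2 of 17 held a gained probe, PDC1 and TDH3, against 1.32% of all internal genes. The WT and dot1 conditions left 22 of the 74 probes of this list to choose from. TDH3, whose promoter is the GPD promoter used in these strains, was the gained probe with the highest A2Q mean, at 0.12 and 0.87 on the 2 arrays (chr7:883580-883635). It had 0.84 and 1.06 in pTEF-SIR3, against 0.99 and 1.20 in pADH-SIR3, so these groups overlapped. No translation elongation factor gene (0 of 6) and no ribosomal protein gene (0 of 118) held a gained probe. The WT and dot1 conditions left 6 of 24 probes to choose from in the elongation factor genes and 146 of 260 in the ribosomal protein genes, so these counts of 0 rest in part on values the rule used. The elongation factor probes had a median of 0.86 in A2Q. Whether transcription adds to signal at TDH3 or PDC1 was not tested.

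The remaining lists held 1 gained gene or none, and at the 1.32% of all internal genes lists of their size would hold fewer than 1, so these counts are near the background. Transporter genes had 1 of 30 (ALP1, an arginine transporter) and phosphate genes 1 of 9 (PHO3, an acid phosphatase). Cell wall (0 of 24), ergosterol (0 of 19), glucose-repressed (0 of 16), heat shock (0 of 23), mating (0 of 13), sulfur (0 of 21), histone (0 of 5) and silencing genes (0 of 17) had none. The mating list does not hold FIG1 and PRM6, pheromone-induced genes with 1 gained probe each. PHO3 had 1.97 and 1.29 in pTEF-SIR3, against 1.52 and 1.72 in pADH-SIR3, so these groups overlapped. DAL80, a repressor of nitrogen-source genes, had 1.98 and 1.91 in pTEF-SIR3, against 1.06 and 0.90 in pADH-SIR3, at chr11:507039-507098, a probe left out of the tests for a missing value. PEP1 was unusual in position, with its 4 probes 2452 to 4094 bp from the start codon.

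**Figure D3:**
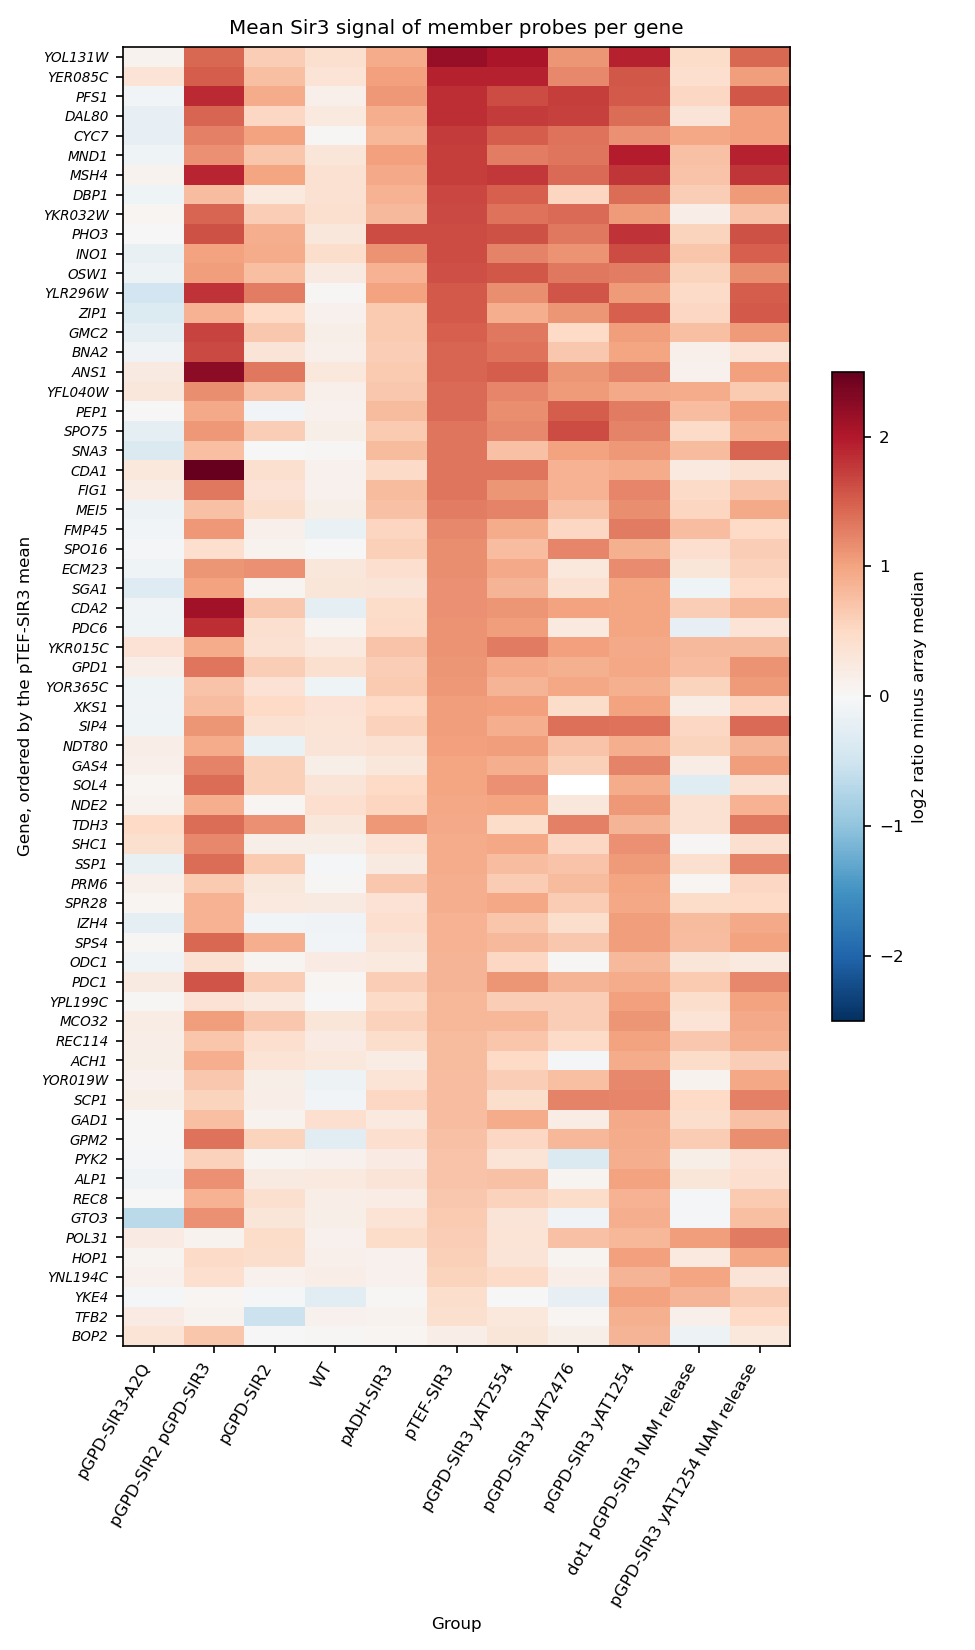
Mean log2 ratio minus array median of the gained probes of each of the 66 genes (rows, ordered by the pTEF-SIR3 mean) in each of the 11 groups (columns), in colour. YOL131W heads the order at 2.19, the A2Q column is pale throughout, the CDA1 value of 2.73 in pGPD-SIR2 pGPD-SIR3 lies beyond the end of the scale, and the blank cell of SOL4 is a missing value.

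The step between the weaker and the stronger promoter was tested in a pair of groups that had no part in the choice. With pTEF-SIR3 in place of pADH-SIR3, 39 of the 80 gained probes tested were higher and 0 were lower (limma, adjusted p below 0.05). The background was 3.99% higher and 0.0246% lower among all 36515 probes tested, and 1.08% higher and 0.0301% lower among internal coding probes. The median difference was 0.56 over the gained probes, against 0.01 over all probes, and 79 of 80 were positive. Both pTEF-SIR3 arrays lay above both pADH-SIR3 arrays in 78 of 86 gained probes, against 17.6% of internal coding probes, of which 19.9% had the opposite order. The largest called rises were at YOL131W, by 1.26 ± 0.15 (SE; adjusted p = 0.000115), GMC2, a synaptonemal complex protein, by 0.94 ± 0.17 (adjusted p = 0.004), and SGA1, the glucoamylase of sporulating cells, by 0.93 ± 0.17 (adjusted p = 0.0034).

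DAL80 (chr11:507301-507356; 0.89 ± 0.13, adjusted p = 0.000825), ZIP1 (0.88 ± 0.15, adjusted p = 0.00254) and MSH4 (0.77 ± 0.15, adjusted p = 0.00539) also rose. MND1 (0.71 ± 0.19, adjusted p = 0.0606) and HOP1 (0.48 ± 0.15, adjusted p = 0.115) did not pass the test, and TDH3 had -0.14 ± 0.20 (adjusted p = 0.963). The count rested on both replicates: it was 22 without pTEF-SIR3 replicate 1, 14 without replicate 2, 17 without pADH-SIR3 replicate 1 and 15 without its replicate 2. It was 2 of 85 in the first deposit alone and 26 of 81 in the later one, with medians of 0.49 and 0.65, and 16 with arrays scaled to a common spread.

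Beyond the TEF promoter no further rise was called. For the mean of yAT2554 and yAT2476 against pTEF-SIR3, 0 of 80 gained probes were called (limma; background 0.0% higher and 0.0219% lower), and 27 had an unadjusted p below 0.05. The median difference was -0.23, with 72 of 80 negative, and the differences ran from -0.73 to 0.14. The labels list an hml deletion for yAT2554 and the pTEF-SIR3 strain and none for yAT2476.

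The A2Q substitution, tested against wild-type SIR3 from the same promoter, went with lower signal at most gained probes. Against the mean of yAT2554 and yAT2476, 64 of 80 were lower in A2Q and 0 were higher (limma; background 10.9% lower and 4.18% higher among all probes, 4.04% lower and 5.89% higher among internal coding probes). The median difference was -0.79, against 0.01 over all probes and 0.09 over internal coding probes. The largest falls were at PFS1 (-2.08 ± 0.15, adjusted p = 3.4e-07), YLR296W (-1.85 ± 0.26, adjusted p = 0.000139) and DAL80 (-1.81 ± 0.13, adjusted p = 3.85e-07). These strains differ from yAT1256 in background as well as in SIR3. Both A2Q arrays were on the same slide, which held neither yAT2554 nor yAT2476, so this difference was not measured within a slide. That slide also held replicate 2 of steady-growth yAT1254, an array used in the choice, where the median of the gained probes was 1.10. In the first deposit alone 50 of 85 were lower, and 46 of 85 with slide as a random block.

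Strain yAT1254 after NAM release has the same labelled background as the A2Q strain, and there the result was alike in size. The gained probes were chosen for high signal on steady-growth arrays of yAT1254, so this comparison is not independent of the choice. In A2Q 65 of 80 gained probes were lower and 0 higher (limma; background 12.0% lower and 3.61% higher among all probes, 5.09% lower and 4.95% higher among internal coding probes), with a median difference of -0.93. Both A2Q arrays lay below both NAM-release arrays in 82 of 87 gained probes, against 22.0% of internal coding probes, of which 37.7% had the opposite order. MND1 (-2.03 ± 0.19, adjusted p = 4.65e-06), YLR296W and PFS1 (-1.89 ± 0.15, adjusted p = 1.23e-06) fell furthest. YLR296W averaged -0.48 in A2Q, against 1.52 in yAT1254 after NAM release (n = 2 arrays each; limma, adjusted p = 8.21e-05). SHC1, an activator of chitin synthesis in spores, had 0.07 ± 0.17 (adjusted p = 0.827) and CDA1 -0.12 ± 0.17 (adjusted p = 0.66), so they were not called. All A2Q arrays came from the first deposit and all NAM-release arrays from the later one; with deposit as a block, fitted through groups in both, 52 of 80 were lower, with a median of -0.84. Growth also differed between these groups, and its part in the result was not tested. Both A2Q comparisons use the same A2Q arrays.

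SIR3 overexpression was also compared within strains that overexpress SIR2. In pGPD-SIR2 pGPD-SIR3 against pGPD-SIR2, 41 of 80 gained probes were higher and 0 lower (limma; background 7.44% higher and 1.51% lower among all probes, 4.15% higher and 1.33% lower among internal coding probes). The median difference was 0.71, against 0.03 over all probes. CDA1 (2.34 ± 0.20, adjusted p = 4.12e-05), CDA2 (1.58 ± 0.17, adjusted p = 0.000177) and PDC6 (1.57 ± 0.20, adjusted p = 0.000367) rose most. ZIP1 (0.37 ± 0.19, adjusted p = 0.251) and MND1 (0.45 ± 0.24, adjusted p = 0.282) were not called. The lone pGPD-SIR2 array takes its spread from the replicated groups; the count was 27 without replicate 1 of pGPD-SIR2 pGPD-SIR3 and 13 of 85 in the first deposit alone.

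With SIR2 added to SIR3, a smaller set of gained probes was higher than with SIR3 alone. Against the mean of yAT2554 and yAT2476, 15 of 80 were higher in pGPD-SIR2 pGPD-SIR3 and 0 lower (limma; background 3.54% higher and 0.578% lower among all probes, 1.84% higher and 0.224% lower among internal coding probes), in 11 genes. The median difference was 0.21, and 28 of 80 were negative. CDA1 (1.63 ± 0.17, adjusted p = 0.000157), PDC6 (1.31 ± 0.16, adjusted p = 0.000494) and CDA2 (1.07 ± 0.14, adjusted p = 0.000868) again led. At the PDC6 probe the single arrays behind that mean were 1.37 in yAT2554 and -0.05 in yAT2476, a gap the SE does not hold, so its p does not describe a difference from both strains. Other called probes share this limit, such as GMC2 at chr12:1024725-1024784, with 1.38 in yAT2554 and 0.38 in yAT2476. It holds for every comparison with the mean of these single arrays, also those with pTEF-SIR3 and A2Q. In yAT1254 after NAM release the CDA1 probe had 0.32 and 0.46 and the PDC6 probe 0.36 and 0.36. Strain backgrounds differ in this comparison, which shares arrays with the others; the count was 9 without replicate 1 of pGPD-SIR2 pGPD-SIR3 and 2 of 85 in the first deposit alone.

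**Figure D4:**
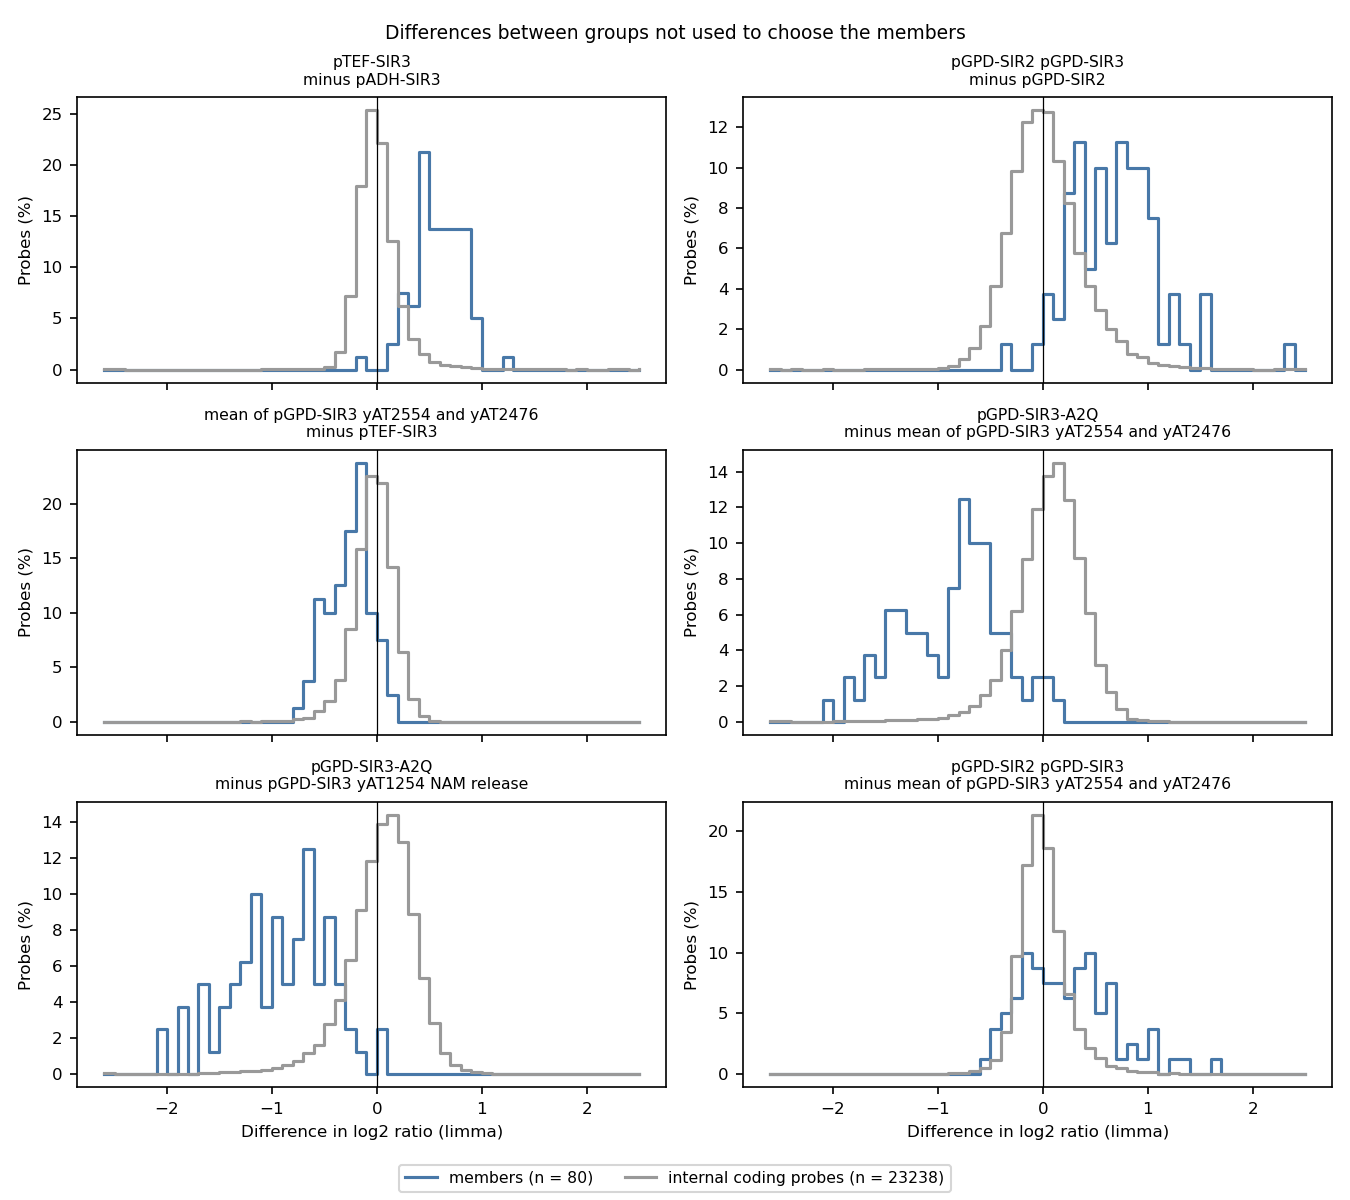
Share of probes (vertical axis, percent) by difference in log2 ratio between groups (horizontal axis) in the 6 comparisons, for the 80 gained probes tested (blue, labelled members) and the 23238 internal coding probes tested (grey). Gained probes lie to the right for pTEF-SIR3 minus pADH-SIR3 (median 0.56) and to the left in both A2Q comparisons (medians -0.79 and -0.93).

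Probes beside the gained ones carried signal as well. Chromatin was sheared to a mean of about 500 bp per the labels, so neighbouring probes share fragments and are not independent of the choice. The 87 intergenic probes within 500 bp before the starts of the 66 genes had median signals of -0.08 in A2Q, against 0.81 in yAT1254 after NAM release, and of 1.05 in pTEF-SIR3, against 0.47 in pADH-SIR3. Of 76 tested, 26 (34.2%) were higher in pTEF-SIR3 than in pADH-SIR3, against 2.84% before any internal gene. The 217 coding probes of the same genes that were not chosen had 0.49 in pTEF-SIR3, against 0.21 in pADH-SIR3, and 31 of 190 tested (16.3%) were higher, against 1.08% of internal coding probes. Signal was thus higher before these genes than on their remaining coding probes, from which the choice had taken the highest.

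Averaged around the start codons without the gained probes, signal with pTEF-SIR3 was highest within 250 bp on either side, with 0.86 at 250 to 500 bp and 1.05 at 500 to 750 bp downstream. In the 250 bp before the start the mean was -0.06 in A2Q, against 0.93 in yAT1254 after NAM release; in WT it was 0.21, with pADH-SIR3 0.55 and with pTEF-SIR3 1.08. In the first 250 bp of the gene it was 1.15 with pTEF-SIR3 and -0.04 in A2Q. Beyond 1000 bp downstream the pTEF-SIR3 mean was 0.46 or less. A2Q thus showed no peak at these starts.

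**Figure D5:**
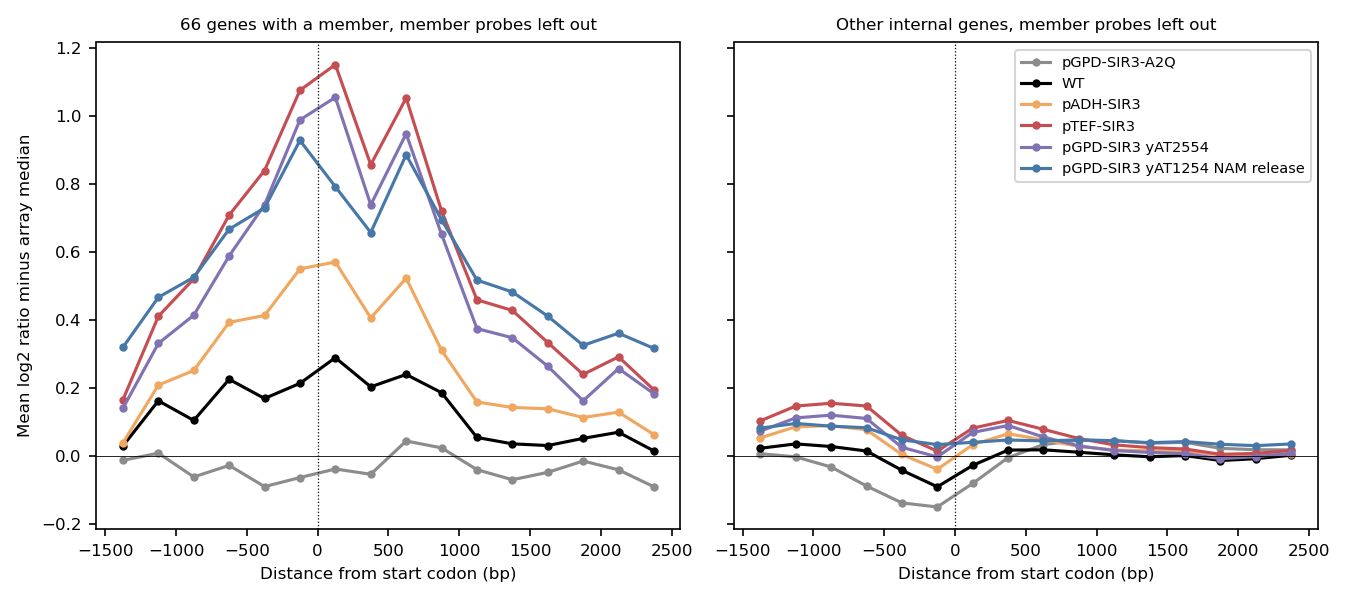
Mean log2 ratio minus array median (vertical axis) in 250 bp bins by distance from the start codon (horizontal axis), without the gained probes, for the 66 genes (left) and other internal genes (right), in 6 groups. The pTEF-SIR3 mean reached 1.15 at the 66 genes, where A2Q stayed near 0.

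In the list of meiosis and sporulation genes as a whole, 18 of 137 probes tested were higher in pTEF-SIR3 than in pADH-SIR3 and 0 lower, with a median difference of 0.21 (internal coding probes 1.08% higher). In A2Q 64 of 137 were lower than in yAT1254 after NAM release and 0 higher, with a median of -0.51 (internal coding probes 5.09% lower). In pGPD-SIR2 pGPD-SIR3 33 of 137 were higher than in pGPD-SIR2 (internal coding probes 4.15% higher). The 137 include the 13 gained probes of the list, which was compiled with earlier results of these data known. These counts are thus not separate from the choice, which used steady-growth yAT1254. Over all 150 coding probes of the list, 13 of them gained, the median signal was -0.07 in A2Q, against 0.44 in yAT1254 after NAM release. It was 0.28 in pTEF-SIR3, against 0.11 in pADH-SIR3.

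The thresholds cut through a continuous range. For 16 gained probes the lower yAT1254 array lay between 0.80 and 0.85, and their median was 0.88 in pTEF-SIR3, against 0.40 in pADH-SIR3. The 31 probes just outside, at 0.75 to 0.80, had 0.85 in pTEF-SIR3, against 0.42 in pADH-SIR3. The WT condition left out 292 probes. The dot1 condition left out 43, among them 11 in FKS1, a cell wall glucan synthase, and 6 in SIR3 itself. Within the gained set, POL31, a DNA polymerase subunit, had the highest dot1 mean, at 1.04, against 1.29 in yAT1254 after NAM release.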

How the data were processed

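The deposited sample files give a linear ratio of precipitated over input signal per probe; the labels assign Cy5 to the Sir3 precipitate and Cy3 to whole-cell extract. The authors' series table holds a rescaled ratio with missing probes filled, and served as an alternative. The sources used here do not give the scanner, background correction or genome build. The unfilled ratio was log2-transformed and each array's median subtracted; ratios at or below 0 (at most 7 on an array, 5 arrays) were set to missing. No further normalization was applied.

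limma 3.58.1 (R 4.3.3) fitted 1 mean per group over 19 arrays to the 36515 probes measured on all of them (80 of the 89 gained probes; 8 residual and 5.644 prior degrees of freedom). Benjamini-Hochberg adjustment ran over all probes in each of 6 comparisons, at 0.05. The fit was tested on simulated data.

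Gained probes, lists and tests were chosen with earlier results of these data known. Named genes are the 12 with the most gained probes, the 3 largest called differences per comparison and direction, and up to 3 per list. Of the 12, IZH4 is named only here. Its 2 gained probes averaged 0.87 in pTEF-SIR3 and 0.42 in pADH-SIR3. Neither was called in that comparison (limma, adjusted p = 0.189 and 0.286). ZIP1, MSH4, HOP1, NDT80, POL31, FKS1, CYC7, GPD1, GPM2, PYK2, SCP1, SPO16 and genes named only by count were added after their values were seen. Python 3.11.15 was used for the rest.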

Additional observations from a re-analysis of the deposited data

How the results depend on the processing

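Counts and medians kept their direction under the alternatives run, with 1 exception, but counts of called probes were fragile with so few arrays. For pTEF-SIR3 minus pADH-SIR3 the count of 39 was 16 with arrays scaled to a common spread, 2 in the first deposit alone, with or without slide as a random block, 25 with probes at least 100 bp inside genes, 19 with a gain threshold of 1, and 14 to 22 leaving out 1 array. Its median of 0.557 was 0.4865 scaled, 0.4905 in the first and 0.6465 in the later deposit, and 0.7094 at the threshold of 1. For pGPD-SIR2 pGPD-SIR3 minus pGPD-SIR2 the count of 41 was 13 in the first deposit, with or without the slide block, 26 inside genes, 16 at the threshold of 1, and 27 to 34 leaving out 1 array, where the median was 0.6333 to 0.6682. For A2Q minus the mean of yAT2554 and yAT2476 the count of 64 was 41 inside genes and 31 at the threshold of 1, with a median of -1.2418; leaving out 1 array gave 49 to 50. For A2Q minus yAT1254 after NAM release the count of 65 was 40 inside genes and 27 at the threshold of 1, and 51 to 57 leaving out 1 array; the median was -1.0445 scaled, -0.8356 with deposit as a block, -0.8279 inside genes and -1.1765 at the threshold. The last 2 settings test fewer gained probes, 51 and 31. Only arrays of groups of 2 were left out, so the single arrays of yAT2554, yAT2476 and pGPD-SIR2 always stayed in. On chromosomes 10 and 11 the setting inside genes asked for 450 bp from the gene edge with the higher coordinate. For pGPD-SIR2 pGPD-SIR3 minus the mean of yAT2554 and yAT2476 the count of 15 was 2 in the first deposit, 6 there with the slide block, 2 at the threshold of 1, and 9 to 10 leaving out 1 array. Its median of 0.2137 reversed to -0.0383 at the threshold of 1; the cause was not tested. For the mean of yAT2554 and yAT2476 minus pTEF-SIR3 the count stayed at 0 in every alternative. Group medians moved with scaling in pADH-SIR3 (0.6006), yAT1254 after NAM release (1.024) and dot1 (0.2748), and inside genes in yAT2476 (0.6769). At the threshold of 1 they were 0.771 in pADH-SIR3, 1.4435 in pTEF-SIR3, 1.2743 in yAT2554, 1.1073 in yAT2476, 1.3038 in yAT1254, 0.591 in pGPD-SIR2, 1.183 in pGPD-SIR2 pGPD-SIR3 and 1.0764 in yAT1254 after NAM release. The other 48 counts stayed within 1.5 times, and 48 median differences and 43 group medians within 1 SD of replicates.

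Replicate numbers are shared between the A2Q and NAM-release groups, and with them as a block 64 of 85 gained probes were lower in A2Q, with a median of -0.954. Deviations of same-numbered arrays correlated at -0.184 between these groups, and at 0.223 between dot1 and yAT1254 after NAM release. With 2 arrays per group, these values cannot decide whether the samples share more than a number.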

Other observations

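Among the 8 groups compared, which leave out WT, steady-growth yAT1254 and dot1, levels of the 89 gained probes were most alike between pTEF-SIR3 and yAT2554 (Pearson r = 0.905, Spearman rho = 0.888) and between pTEF-SIR3 and pADH-SIR3 (r = 0.825, rho = 0.828). Levels in pTEF-SIR3 and in yAT1254 after NAM release had r = 0.519, and those in pGPD-SIR2 pGPD-SIR3 and in yAT1254 after NAM release had r = 0.186. With the A2Q group r lay between -0.194 and -0.013. These values describe probes, which share arrays and in part fragments, and no p is given. The yAT2554 array and replicate 1 of pTEF-SIR3 were on the same slide.

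The single arrays of the pGPD-SIR3 strains yAT2554 and yAT2476 differed at several genes. Per gene, PDC6 had a mean of 1.05 in yAT2554 and 0.24 in yAT2476, and GMC2 had 1.32 in yAT2554 and 0.50 in yAT2476. PYK2 had 0.34 in yAT2554 and -0.37 in yAT2476. In the other direction, SCP1, an actin-binding protein, had 0.45 in yAT2554 and 1.25 in yAT2476, and SPO16, a meiosis gene, had 0.77 in yAT2554 and 1.23 in yAT2476. With 1 array each there is no test of these differences, and these genes were chosen after their values were seen.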
